A study of Brassica rapa with 6 samples.

Results

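Autophagy and senescence loci were compared between leaf and petiole of baby Chinese cabbage (*Brassica rapa*). The members were the loci of the deposited table with a single gene name whose description contains the word autophagy or senescence or the name vacuolar-processing enzyme, NAC factors left out. There were 62 such loci among 49200, of which 40 were autophagy loci, 19 senescence loci and 3 vacuolar-processing enzyme loci. The table held 3 leaf and 3 petiole libraries of an untreated inbred line at maturity. The labels do not say whether the 3 libraries of a tissue were taken from separate plants. The p-values therefore measure only the spread between these libraries, which may be technical. In such bulk samples, fewer cells of a type and less RNA per cell cannot be told apart.

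Autophagy carries cytoplasm and organelles to the vacuole inside a double membrane, the autophagosome, and is known in leaves for recycling chloroplast protein during starvation and ageing. In Arabidopsis, the ATG1 kinase complex with ATG11, ATG13 and ATG101 starts the membrane, ATG9, ATG2 and ATG18 feed it with lipid, and a ubiquitin-like chain with ATG5 and ATG3 attaches ATG8 to it. Senescence genes were named in Arabidopsis for being switched on in ageing leaves. Vacuolar-processing enzymes are cysteine proteases that cut vacuolar proteins after asparagine.

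The deposited estimated counts summed to about 111518000 to 121162000 units per leaf library and 120806000 to 132861000 units per petiole library, a sequenced fragment adding about 3.8 units. The members took 0.110% to 0.115% of the units in leaf and 0.146% to 0.154% in petiole, before TMM scaling. CPM, counts scaled by library size with TMM factors, are used below to compare tissues. FPKM, which also divides by transcript length, is used to compare loci with each other. In CPM the members summed to 1239 to 1286 in leaf and 1332 to 1354 in petiole, a smaller difference than in the unscaled shares. A log2 fold change is petiole over leaf, positive where petiole was higher, and is given with its standard error (SE) as tested with edgeR over all 31473 loci that passed its filter on low counts. On these counts 62.6% of the loci differed at an adjusted p under 0.05, 31.1% being higher in leaf and 31.5% higher in petiole, with a median log2 fold change of 0.01. The libraries of the tissues did not overlap in CPM for 71.3% of the loci. The deposited FPKM rest on another scaling, on which log2 fold changes are larger by a median of 0.74 (less for loci at 0 in a tissue). There 14.8% of the loci were higher in leaf and 56.4% higher in petiole, and the median was 0.74. The direction of a locus with a log2 fold change between about -0.74 and 0 on the counts therefore depends on the scale. Where no scale is named below, a call is on the counts.

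The classes lay on opposite sides of the middle of all loci. Of 31 autophagy loci tested on the counts, 21 were higher in leaf, 0 were higher in petiole and 10 did not pass, against 31.1% and 31.5% of all loci. At an unadjusted p under 0.05 the edgeR count was 22 in leaf and 0 in petiole, and DESeq2 called 21 and 0. Of 10 senescence loci tested, 7 were higher in petiole, 1 was higher in leaf and 2 did not pass. The gamma vacuolar-processing enzyme was higher in leaf and the beta enzyme in petiole. The median log2 fold change was -0.55 for the autophagy loci tested and 1.30 for the senescence loci tested. On the FPKM scale 6 autophagy loci were higher in leaf and 12 higher in petiole, against 14.8% and 56.4% of all loci. Their median there was 0.19. The autophagy median lay 0.56 below that of all loci (a difference of -0.56), and the senescence median 1.29 above it. These distances are alike on both scales by construction, because the scales differ by nearly the same shift for most loci.

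The shift between the scales moves nearly all loci toward petiole, so a small leaf excess is lost or turned by it while a petiole excess is not. Of the 21 autophagy calls, 6 kept their direction on the FPKM scale, 11 did not pass there and 4 were called the other way. A further 8 autophagy loci passed on the FPKM scale alone, and all of these were higher in petiole. All 7 senescence loci higher in petiole on the counts were so on the FPKM scale, and both vacuolar-processing enzyme calls held. The autophagy loci called higher in leaf on both scales were an ATG11, an ATG18a, an ATG18d, an ATG18f, an ATG8e and an ATG8f locus.

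**Figure D1:**
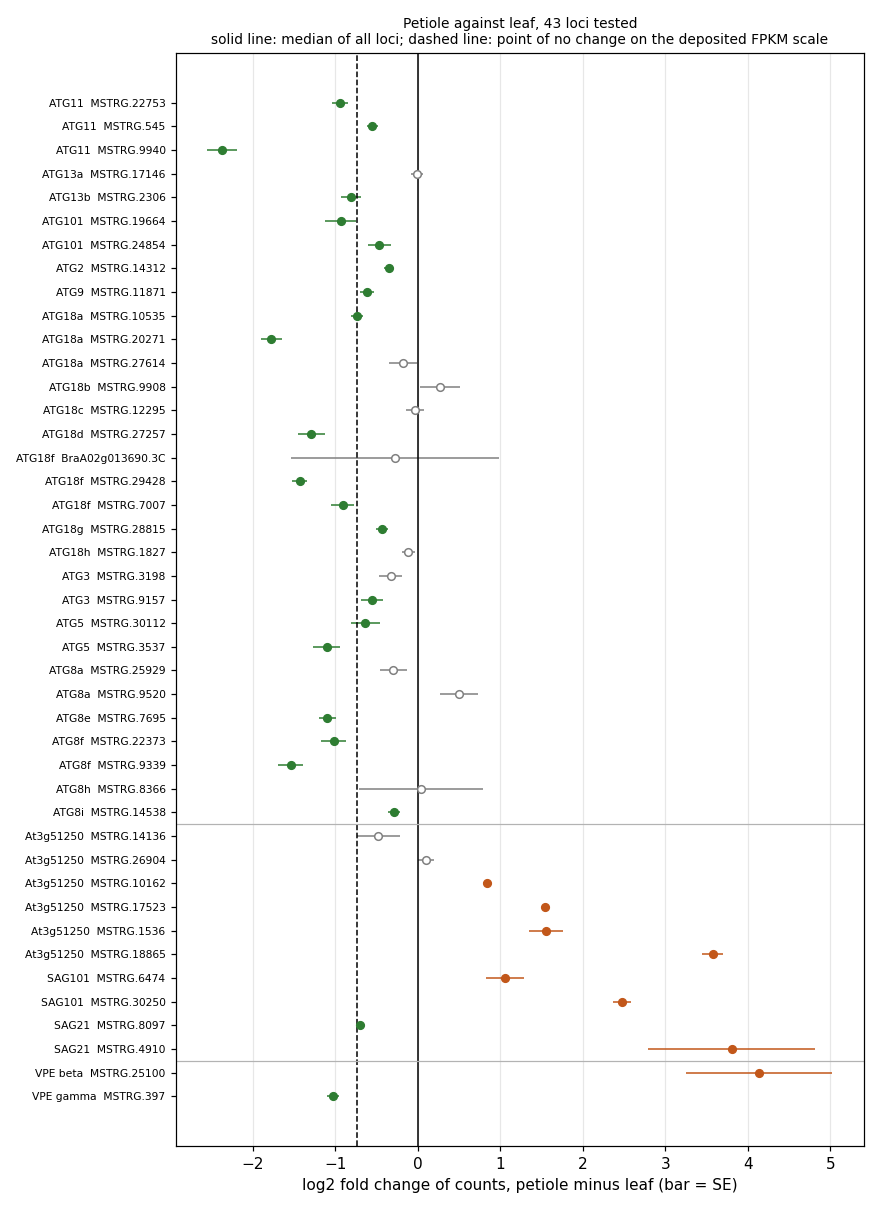
Log2 fold change on the counts, petiole minus leaf, of the 43 loci tested, with the SE as bars and 3 libraries per tissue. Filled green points were higher in leaf, filled orange points higher in petiole and open points did not pass. The solid line is the median of all loci (0.01) and the dashed line, at -0.74, is where a locus shows no change on the deposited FPKM scale.

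Members that could not be tested make up much of the senescence class. The filter left out 19 members, and 12 of these had no unit in any of the 6 libraries, 5 of the autophagy class and 7 of the senescence class. Both loci annotated SAG12, the papain-like cysteine protease that is the classical marker of late leaf senescence in Arabidopsis, were at 0 in leaf and petiole. So were the SAG39 protease locus, both loci of the senescence-induced receptor-like kinase, a SAG101-like locus and a SAG21-like locus. A count of 0 allows up to 3 fragments, or 12 units, per library, which is 0.0795 to 0.118 CPM and covers counting error only. The DIN1 locus BraA01g002770.3C, named for a gene of Arabidopsis induced by darkness, had 0.432, 0 and 0.0970 CPM in leaf against 0 in each petiole library. The alpha vacuolar-processing enzyme locus BraA09g052900.3C lay between 0 and 0.147 CPM in all libraries. These levels are too low to compare the tissues.

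The identifier of a member went with whether it could be tested. Of the 44 members with an identifier of a transcript assembly, 42 were tested, and of the 18 that carry an annotation identifier alone, 1 was. Over the whole table the shares were 94.4% and 12.3%. Among the 9 untested autophagy loci were one of 4 ATG11, one of 3 ATG3 and one of 2 ATG9 loci, each at 0 in every library.

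The initiation complex had 7 loci tested, of which 6 were higher in leaf on the counts, against 31.1% of all loci. On the FPKM scale 1 was higher in leaf and 2 in petiole, against 14.8% and 56.4% of all loci. ATG11, the scaffold of that complex, had 3 tested loci that differed in the size of the change. MSTRG.9940 (gene BraA03g056180.3C, chromosome A03, 29427158 to 29431254) had 6.34, 6.85 and 7.83 CPM in leaf against 1.25, 1.499 and 1.32 CPM in petiole. All its petiole libraries lay far below the lowest leaf library. Its log2 fold change was -2.37 ± 0.179 (SE, edgeR adjusted p = 9.13e-07), the strongest toward leaf among the autophagy loci tested, and -1.63 on the FPKM scale. MSTRG.22753 stood at 13.6 ± 0.364 CPM in leaf against 7.11 ± 0.0595 CPM in petiole (SD, n = 3 each), a log2 fold change of -0.94 that fell to -0.20 and did not pass on the FPKM scale (edgeR adjusted p = 0.098). The most abundant ATG11 locus, MSTRG.545, had 38.9, 40.2 and 41.0 CPM in leaf against 26.9, 26.2 and 29.0 CPM in petiole. The tissues did not overlap, but its log2 fold change of -0.55 on the counts was 0.19 on the FPKM scale, where the call went to petiole (edgeR adjusted p = 0.0245). MSTRG.545 also overlaps a locus on the opposite strand, and no source states whether counting was by strand. In all, 7 members overlap another locus. MSTRG.10535, MSTRG.17146, MSTRG.12295, MSTRG.3537 and MSTRG.15159 also overlap a locus on the opposite strand. MSTRG.8366 overlaps a locus without a stated strand.

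ATG13 recruits and activates the ATG1 kinase. The ATG13a-like locus MSTRG.17146 had 25.4, 24.6 and 26.7 CPM in leaf against a mean of 25.4 ± 0.424 CPM in petiole, so that the tissues overlapped fully. Its log2 fold change was -0.01 ± 0.068 (SE, edgeR adjusted p = 0.905), against 0.73 on the FPKM scale (edgeR adjusted p = 3.56e-06). The ATG13b-like locus MSTRG.2306 was higher in leaf on the counts, at 15.1 ± 0.881 CPM against 8.60 ± 1.22 CPM, and did not pass on the FPKM scale (log2 fold change -0.07). ATG101, a small partner of ATG13, had a pair of loci with log2 fold changes of -0.93 (MSTRG.19664) and -0.47 (MSTRG.24854) on the counts. On the FPKM scale these were -0.19 and 0.27 and neither passed.

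Among the membrane delivery proteins, 8 of 13 loci tested were higher in leaf on the counts, against 31.1% of all loci. On the FPKM scale 3 were higher in leaf and 6 in petiole, against 14.8% and 56.4% of all loci. ATG2 is a lipid transfer protein. Its only locus, MSTRG.14312, was the most abundant autophagy locus in CPM, which do not divide by its great length, with 136, 159 and 146 CPM in leaf against 112, 118 and 116 CPM in petiole. The log2 fold change was -0.35 ± 0.057 (SE, edgeR adjusted p = 0.000329) on the counts and 0.39 on the FPKM scale, called in opposite directions. ATG9, the membrane protein of the vesicles that seed the autophagosome, stood at 31.2 ± 3.10 CPM in leaf against 20.4 ± 0.583 CPM in petiole (MSTRG.11871). That leaf excess, a log2 fold change of -0.61, became 0.12 and did not pass on the FPKM scale.

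ATG18 proteins bind phosphatidylinositol 3-phosphate and recruit ATG2, and they formed the largest family with 12 loci. Of 11 tested, 6 were higher in leaf on the counts, against 31.1% of all loci, and 5 did not pass. On the FPKM scale 3 were higher in leaf and 5 in petiole, against 14.8% and 56.4% of all loci. ATG18a, which is required for autophagy in Arabidopsis, had 3 loci. MSTRG.20271 (gene BraA07g025220.3C, chromosome A07, 19514173 to 19516073) had 25.3, 27.5 and 26.3 CPM in leaf against 9.28, 6.60 and 7.27 CPM in petiole. No petiole library came near the leaf range, and the log2 fold change was -1.77 ± 0.126 (SE, edgeR adjusted p = 5.63e-07), or -1.03 on the FPKM scale. The most abundant ATG18a locus, MSTRG.10535, had 46.9, 46.2 and 47.7 CPM in leaf against 28.8, 25.9 and 29.8 CPM in petiole. Its log2 fold change of -0.74 on the counts equals the shift between the scales, so that on the FPKM scale leaf and petiole were alike in the mean, at 18.5 ± 0.197 and 18.5 ± 1.33 FPKM. It overlaps a locus on the opposite strand. The third, MSTRG.27614, overlapped between the tissues at 7.80 to 10.01 CPM in leaf against 6.30 to 9.67 CPM in petiole (edgeR adjusted p = 0.387, and 0.0136 toward petiole on the FPKM scale).

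The ATG18d locus MSTRG.27257 had 8.24, 9.41 and 7.25 CPM in leaf against 3.21, 3.18 and 3.82 CPM in petiole. An ATG18f-like locus, MSTRG.29428, had 21.2, 22.2 and 21.9 CPM in leaf against 8.18, 8.51 and 7.52 CPM in petiole. Both were separated without overlap, with log2 fold changes of -1.29 ± 0.158 and -1.43 ± 0.091 (SE) on the counts and -0.55 and -0.69 on the FPKM scale. The ATG18g locus MSTRG.28815, the most abundant ATG18 locus in CPM, had 85.5 ± 6.11 CPM in leaf against 63.1 ± 5.50 CPM in petiole. Its log2 fold change was -0.44 on the counts and 0.30 on the FPKM scale, and it passed on both, in opposite directions. The ATG18b (MSTRG.9908), ATG18c (MSTRG.12295) and ATG18h (MSTRG.1827) loci, with log2 fold changes of 0.27, -0.03 and -0.11, did not pass on the counts. All 3 were higher in petiole on the FPKM scale, at 1.01, 0.71 and 0.62.

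**Figure D2:**
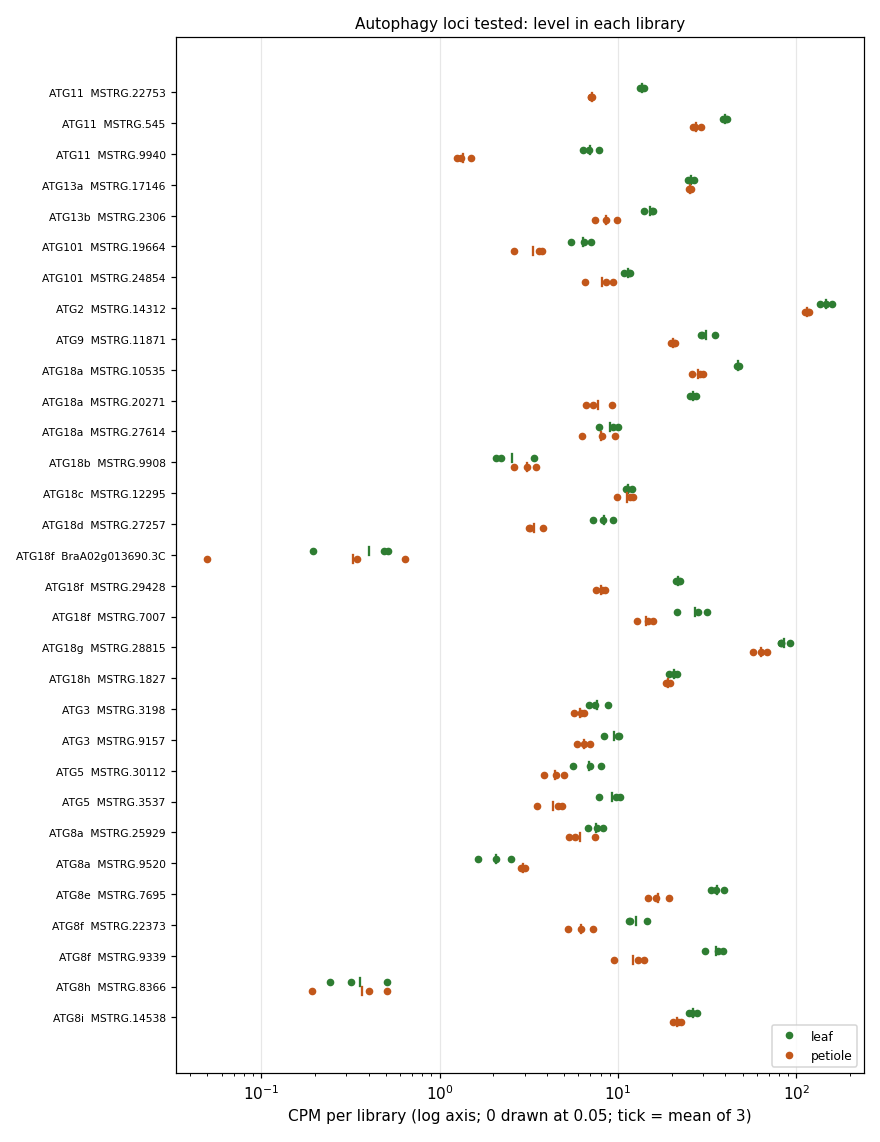
CPM in each library (log axis) for the 31 autophagy loci tested, green for leaf and orange for petiole, ordered by role from the ATG1 complex to ATG8. Ticks mark the mean of 3 libraries. The leaf points of ATG11 MSTRG.9940, ATG18a MSTRG.20271 and ATG8f MSTRG.9339 lie clear of the petiole points, while those of ATG13a MSTRG.17146 overlap with them.

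The conjugation chain had 11 loci tested, of which 7 were higher in leaf on the counts, against 31.1% of all loci. On the FPKM scale 2 were higher in leaf and 4 in petiole, against 14.8% and 56.4% of all loci. ATG5, which is joined to ATG12 and promotes the last step, had both loci higher in leaf on the counts, with log2 fold changes of -1.10 (MSTRG.3537) and -0.63 (MSTRG.30112). Neither passed on the FPKM scale. ATG3, the conjugating enzyme for ATG8, had log2 fold changes of -0.55 (MSTRG.9157, edgeR adjusted p = 0.00417) and -0.33 (MSTRG.3198, edgeR adjusted p = 0.0627) on the counts. The second did not pass although its libraries did not overlap, at 6.85 to 8.76 CPM in leaf against 5.68 to 6.43 CPM in petiole. It passed toward leaf without leaf replicate 1 (edgeR adjusted p = 0.0454). It was called toward petiole on the FPKM scale, at a log2 fold change of 0.41 (edgeR adjusted p = 0.0264), and MSTRG.9157 was at 0.19 and did not pass.

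ATG8, the ubiquitin-like protein that coats the autophagosome and binds cargo receptors, had 10 loci, of which 7 were tested. Among the untested loci, the ATG8c locus BraA03g064360.3C was at 0 in every library. The ATG8e-like locus BraA07g023170.3C had 0.137, 0 and 0.262 CPM in leaf and 0 in each petiole library. The ATG8h locus MSTRG.15159 had at most 0.271 CPM in any library. By FPKM, the ATG8i locus MSTRG.14538 was the most abundant autophagy locus, at 35.2 ± 1.85 FPKM in leaf and 48.2 ± 2.09 FPKM in petiole (SD, n = 3 each). In CPM it had 25.03, 26.1 and 27.7 in leaf and 20.4, 21.7 and 22.5 in petiole. The log2 fold change was therefore -0.29 ± 0.076 (SE, edgeR adjusted p = 0.00745) on the counts and 0.45 on the FPKM scale (edgeR adjusted p = 0.000326). The ATG8e locus MSTRG.7695 came next, with 31.6 ± 2.86 FPKM in leaf and 24.7 ± 3.56 FPKM in petiole. In CPM its values were 35.6, 39.1 and 33.2 in leaf and 19.4, 16.4 and 14.8 in petiole. The leaf libraries lay above the petiole libraries, and the log2 fold change of -1.09 ± 0.107 (SE) on the counts was -0.36 on the FPKM scale, past the threshold on both.

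The ATG8f-like locus MSTRG.9339 (gene BraA03g046990.3C, chromosome A03, 23751768 to 23753696) had 36.5, 39.0 and 30.8 CPM in leaf against 14.04, 13.02 and 9.49 CPM in petiole. On the counts this was the strongest change of the ATG8 family, a log2 fold change of -1.54 ± 0.153 (SE, edgeR adjusted p = 2.82e-05), or -0.80 on the FPKM scale. The other ATG8f locus, MSTRG.22373, had a log2 fold change of -1.02 on the counts and -0.28 on the FPKM scale, where it did not pass. The ATG8a loci did not pass on the counts, with log2 fold changes of -0.29 (MSTRG.25929) and 0.50 (MSTRG.9520). The latter had 2.52, 1.63 and 2.08 CPM in leaf against 2.86, 2.90 and 3.03 CPM in petiole, passed without leaf replicate 1 (edgeR adjusted p = 0.0416), and MSTRG.25929 passed toward leaf without petiole replicate 1 (edgeR adjusted p = 0.0319). On the FPKM scale both were higher in petiole, at 0.44 (MSTRG.25929) and 1.24 (MSTRG.9520). The ATG8h locus MSTRG.8366 stayed at 0.192 to 0.510 CPM in the 6 libraries. Summed over the family, ATG8 made 113 to 128 CPM in leaf against 61.8 to 71.6 CPM in petiole, but 101.2 to 111 FPKM in leaf and 103 to 114 FPKM in petiole.

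The senescence class was led by the loci described as senescence/dehydration-associated protein At3g51250, an Arabidopsis gene of the ERD7 family, whose founding member responds early to drought. All 6 were tested, and 4 were higher in petiole on both scales. Of all loci, 31.5% were higher in petiole on the counts and 56.4% on the FPKM scale. MSTRG.18865 (gene BraA07g003080.3C, chromosome A07, 2333244 to 2336644) had 12.05, 9.79 and 8.42 CPM in leaf against 120.3, 122 and 119 CPM in petiole. The petiole libraries were close to each other and about an order of magnitude above leaf, with a fitted difference of 11.9-fold and a log2 fold change of 3.58 ± 0.126 (SE, edgeR adjusted p = 9.36e-08). The most abundant of the 6, MSTRG.17523 (gene BraA06g030110.3C), had 122, 116 and 119 CPM in leaf against 358, 339 and 341 CPM in petiole. That is a 2.91-fold difference with a log2 fold change of 1.54 ± 0.040 (SE, edgeR adjusted p = 2.49e-10), the smallest adjusted p of the members.

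MSTRG.10162 had 93.6, 88.2 and 85.7 CPM in leaf against 160.3, 157 and 160.5 CPM in petiole, a smaller step of 0.84 ± 0.044 (log2, SE, edgeR adjusted p = 5.74e-08). MSTRG.1536 was the least abundant of the 4, with 2.41, 2.38 and 3.52 CPM in leaf against 6.69, 9.25 and 8.48 CPM in petiole. In all 4 the lowest petiole library lay above the highest leaf library. The other 2 did not pass on the counts. MSTRG.26904 overlapped between the tissues at 14.8 to 15.7 CPM in leaf against 14.8 to 18.0 CPM in petiole, and was higher in petiole on the FPKM scale (log2 fold change 0.84). MSTRG.14136 had 4.50, 4.20 and 3.72 CPM in leaf against 3.11, 1.89 and 3.93 CPM in petiole (edgeR adjusted p = 0.134). Without petiole replicate 3 it passed toward leaf (edgeR adjusted p = 0.039, log2 fold change -0.73). Its FPKM-scale log2 fold change of 0.26 did not pass. Per length, the 6 loci together stood at 54.2 to 57.0 FPKM in leaf and 279 to 286 FPKM in petiole.

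SAG21 is a small mitochondrial protein of the late embryogenesis abundant family in Arabidopsis. MSTRG.8097 (gene BraA03g029130.3C, chromosome A03, 14609595 to 14609973) was by far the most abundant member, at 476 ± 11.03 FPKM in leaf and 490.4 ± 3.53 FPKM in petiole, while the median locus tested stood at 3.81 FPKM. On the counts it had 234, 234 and 227 CPM in leaf against 143, 143 and 143 CPM in petiole. It was thus higher in leaf on that scale (log2 fold change -0.69 ± 0.036, SE, edgeR adjusted p = 4.43e-08), while on the FPKM scale the log2 fold change was 0.04 and did not pass. A SAG21-like locus, MSTRG.4910, went the other way, with 0.294, 0.448 and 0 CPM in leaf against 2.40, 4.04 and 4.02 CPM in petiole. Its log2 fold change of 3.81 ± 1.01 (SE, edgeR adjusted p = 0.0184) rests on low counts. It did not pass without leaf replicate 1 (edgeR adjusted p = 0.0671) or without petiole replicate 2 (edgeR adjusted p = 0.0525), and leaving out any other library kept it past the threshold. The other 2 SAG21 loci were at or near 0.

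SAG101 is a lipase-like protein that acts with EDS1 in immunity in Arabidopsis. Both SAG101-like loci tested were higher in petiole on both scales. MSTRG.30250 (gene BraA10g024340.3C, chromosome A10, 16682190 to 16686414) had 5.66, 5.47 and 6.24 CPM in leaf against 33.4, 34.9 and 28.3 CPM in petiole, a 5.56-fold difference (log2 fold change 2.48 ± 0.106, SE, edgeR adjusted p = 1.08e-08). MSTRG.6474 had 1.57, 1.502 and 1.35 CPM in leaf against 3.22, 3.48 and 2.50 CPM in petiole, again without overlap (log2 fold change 1.06 ± 0.232, SE). The third, BraA10g024330.3C, is the direct neighbour of MSTRG.30250 on the same strand, 2248 bases away with no locus between them, and was at 0 in all 6 libraries. How alike the sequences of these neighbours are, and so whether reads could be split between them, was not analysed here.

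The vacuolar-processing enzymes tested, 1 gamma and 1 beta locus, went in opposite directions. The gamma enzyme, known from vegetative organs of Arabidopsis and from cell death in its leaves, was represented by MSTRG.397 (gene BraA01g005100.3C, chromosome A01, 2431232 to 2433581). It had 63.7, 66.4 and 66.4 CPM in leaf against 36.2, 30.2 and 30.2 CPM in petiole. The tissues did not overlap and leaf was higher by 2.03-fold (log2 fold change -1.02 ± 0.075, SE, edgeR adjusted p = 7.40e-07), or -0.29 on the log2 FPKM scale, where it also passed. The beta enzyme, which processes storage proteins in seeds of Arabidopsis, had 0.118, 0.177 and 0 CPM in leaf against 1.54, 2.33 and 1.38 CPM in petiole at MSTRG.25100. The log2 fold change was 4.14 ± 0.884 (SE, edgeR adjusted p = 0.00297). It rests on low counts, with 12, 19 and 0 units in leaf against a floor of 12 units. Leaving out any library kept it past the threshold. Per length the beta enzyme reached only 1.17 ± 0.341 FPKM in petiole against 21.5 ± 2.39 FPKM for the gamma enzyme there.

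**Figure D3:**
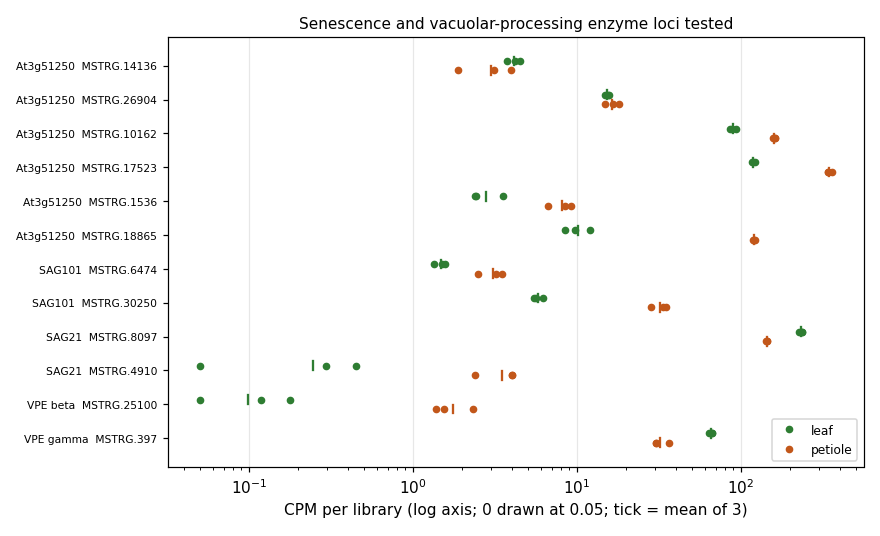
CPM in each library (log axis, 0 drawn at 0.05) for the 10 senescence and 2 vacuolar-processing enzyme loci tested, green for leaf and orange for petiole, with ticks at the mean of 3 libraries. The petiole points of MSTRG.18865 at 119 to 122 CPM lie an order of magnitude right of its leaf points, and SAG21 MSTRG.8097 is the most abundant member in leaf.

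Loci with the same description are often copies left by the genome triplication of *Brassica*, and the ratio between a pair of them within a library does not depend on how libraries are scaled. For 28 pairs of members with at least 1 FPKM in a tissue and units in every library, the log2 ratio of counts was compared between the tissues. It did not overlap between leaf and petiole for 24 pairs, 9 of 12 autophagy pairs and 15 of 16 senescence pairs. The senescence pairs were all pairings of the 6 At3g51250 loci and the pair of SAG101-like loci. Pairs within At3g51250, ATG11 and ATG18a share loci, so the pairs are not independent of each other. Over the table, 69.9% of 7059 such pairs did not overlap. An exact two-sided permutation test on 3 against 3 libraries cannot go below p = 0.10, which these 24 pairs reached (adjusted p = 0.117 over the 28 pairs), so no pair passed.

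The balance of the ATG11 loci MSTRG.545 and MSTRG.9940 went from a log2 ratio of 2.52 ± 0.117 in leaf to 4.34 ± 0.184 in petiole (SD, n = 3 each). The ATG18a loci MSTRG.10535 and MSTRG.20271 went from 0.83 ± 0.073 to 1.88 ± 0.215. In both pairs the more abundant locus made up a larger part of the counts in each petiole library than in any leaf library. MSTRG.10535 over the third ATG18a locus, MSTRG.27614, went the other way, from 2.38 ± 0.184 to 1.83 ± 0.412. For ATG8f, MSTRG.9339 over MSTRG.22373, the shift was the other way, from 1.49 ± 0.127 to 0.96 ± 0.343. Among the At3g51250 loci, MSTRG.17523 over MSTRG.18865 went from 3.57 ± 0.241 in leaf to 1.53 ± 0.049 in petiole. MSTRG.17523 over MSTRG.1536, with 5.45 ± 0.323 and 5.42 ± 0.285, was the one pair of this class that overlapped.

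**Figure D4:**
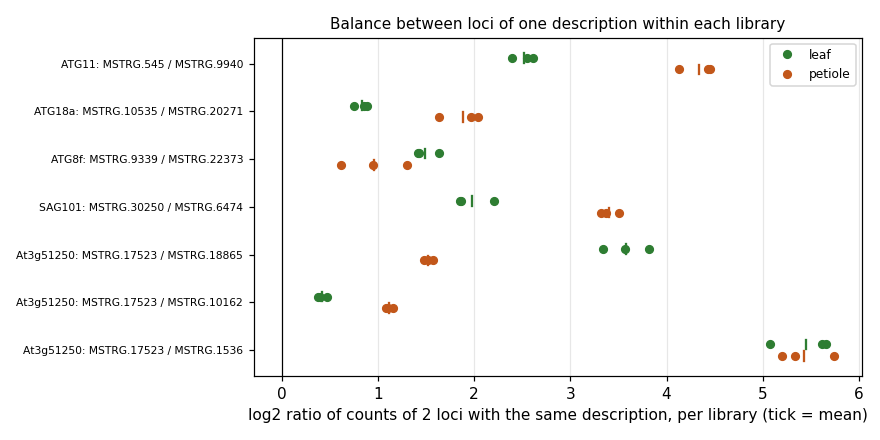
Log2 ratio of counts between a pair of loci with the same description in each library, for 7 of the 28 pairs, green for leaf and orange for petiole with ticks at the mean of 3 libraries. The tissues separate for all but the last pair, MSTRG.17523 over MSTRG.1536, and the ATG11 ratio moves from 2.52 to 4.34.

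Other genes of these pathways were read from lists matched on the descriptions. For comparison, 31.1% of all loci were higher in leaf and 31.5% in petiole on the counts. On the FPKM scale the shares of all loci were 14.8% and 56.4%. Of 13 tested loci that carry another ATG number without the word autophagy, 7 were higher in leaf on the counts and 0 in petiole (9 and 0 at an unadjusted p under 0.05 with edgeR, 7 and 0 with DESeq2). Their median log2 fold change was -0.43. The ATG1b kinase locus MSTRG.10798 stood at 22.7 ± 2.16 CPM in leaf against 11.8 ± 0.737 CPM in petiole, and the ATG7 activating enzyme locus MSTRG.5172 at 33.7 ± 1.22 and 21.7 ± 1.01 CPM. Neither passed on the FPKM scale, where 1 locus of this list was higher in leaf and 5 in petiole. The TOR, SnRK1 and VPS34 kinases upstream of autophagy and their partners had 10 loci tested, 4 called toward leaf and 4 toward petiole on the counts, with a median of 0.01. On the FPKM scale 1 was higher in leaf and 9 in petiole, with a median of 0.75. The medians of all loci were 0.01 and 0.74, so this list lay at the middle of all loci. That this held on both scales follows from the near-constant shift between them. The beclin-1-like locus MSTRG.20241, whose product works with the lipid kinase VPS34, was higher in leaf on both scales (log2 fold changes -1.31 and -0.57). RAPTOR 1, a partner of the TOR kinase that restrains autophagy (MSTRG.8471), was higher in petiole on both, at 0.46 and 1.20. NBR1 and ATG8-interacting proteins, which link cargo to ATG8, were higher in leaf for 4 of 6 loci on the counts and in petiole for 0 (4 and 0 unadjusted, and 4 and 0 with DESeq2). Only the NBR1 locus MSTRG.22902 of these stayed higher in leaf on the FPKM scale, with log2 fold changes of -1.64 and -0.90, and 2 of the 6 were higher in petiole there.

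Chlorophyll breakdown genes, whose products dismantle the pigment in ageing leaves, were higher in leaf for 9 of 11 loci tested on the counts and in petiole for 0 (9 and 0 unadjusted, and with DESeq2), with a median of -1.05. On the FPKM scale 5 were higher in leaf and 2 in petiole. The chlorophyll b reductase NYC1 locus MSTRG.10991 had 57.8 ± 8.79 CPM in leaf against 14.7 ± 4.11 CPM in petiole, and the STAY-GREEN 1 locus MSTRG.9560 had 20.0 ± 2.13 and 8.61 ± 0.343 CPM. Cysteine proteases and metacaspases, a list that includes ATG4 loci also counted above, had 30 loci tested, 17 of them higher in petiole and 9 in leaf on the counts, and 24 and 3 on the FPKM scale. Their inhibitors had 16 tested, with 9 and 2 on the counts and 11 and 0 on the FPKM scale. The metacaspase-7 locus MSTRG.20350 had 0.373 ± 0.190 CPM in leaf against 17.1 ± 0.555 CPM in petiole, and the RDL5 protease locus MSTRG.4993 had 2.28 ± 1.43 and 70.0 ± 0.721 CPM. Nitrogen remobilisation genes had 18 loci tested, 8 called toward petiole and 7 toward leaf on the counts, and 12 and 3 on the FPKM scale. For comparison with the lists of this paragraph, 31.5% of all loci were higher in petiole and 31.1% in leaf on the counts. On the FPKM scale these shares were 56.4% and 14.8%, so a petiole majority there is shared with all loci. A cytosolic glutamine synthetase, the enzyme that makes glutamine for export (MSTRG.8736), had 0.752 ± 0.260 CPM in leaf against 20.1 ± 3.11 CPM in petiole, while the chloroplast enzyme (MSTRG.22199) had 94.5 ± 1.42 and 8.80 ± 0.289 CPM.

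On the counts, the calls of mesophyll and of xylem markers went in a single direction each, while those of phloem went both ways. Mesophyll markers, antenna proteins and Rubisco small chains, were higher in leaf for 25 of 26 loci tested on the counts. They summed to 4275 to 4660 CPM in leaf against 368 to 402 CPM in petiole. The remaining locus leaned toward petiole, with a log2 fold change of 0.84, and did not pass on the counts. On the FPKM scale 24 were higher in leaf and 1 in petiole. The antenna locus MSTRG.23480 and the Rubisco small chain locus MSTRG.4271 were at 0 in petiole. Xylem markers were higher in petiole for all 10 loci tested, with sums of 45.4 to 51.6 CPM in leaf against 128 to 163 CPM in petiole, and a further CESA8 locus was at 0 in both tissues. Any locus described as a xylem cysteine proteinase is in this list and also in the cysteine protease list above. Phloem markers had 18 loci tested, 8 called toward leaf and 5 toward petiole on the counts (4 and 7 on the FPKM scale), with sums of 334 to 348 and 209 to 217 CPM. Of the guard cell and epidermis markers 2 loci were tested and 1 was higher in petiole, and 6 were at 0. Their sums were low, at 0.514 to 0.844 CPM in leaf and 1.42 to 1.84 CPM in petiole. The part of these cell types in the differences of the members was not tested.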

How the data were processed

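RNA was measured in 3 leaf and 3 petiole libraries. Per the labels' protocols, ribosomal RNA was removed and libraries were strand-specific. The authors deposited estimated counts and FPKM per locus, per the file headers. The submitters' processing notes name Bowtie 0.12.2 and mm8, a mouse build, with no role. No source used here gives the aligner, the counter or the plant build, and coordinates are those of the table. The deposited counts were whole numbers that piled up at multiples of 3.79 to 3.82 units. Across libraries the deposited FPKM of a locus followed its counts up to one factor per library, with a value of 0.0001 where the count was 0.

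Counts were tested with edgeR 4.0.16 in R 4.3.3 (quasi-likelihood, filterByExpr, TMM, tissue alone, two-sided, Benjamini-Hochberg over all 31473 loci, threshold 0.05). SE is the log2 fold change over the root of F. The FPKM scale is the same test with library sizes set to match the deposited FPKM, and was added after seeing the data. DESeq2 1.42.0 and limma 3.58.1 gave alternatives, and the tests were checked on simulated counts. No count of members has a test of its own.

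Members and lists were chosen with earlier results of these data known. Named by rule were all vacuolar-processing enzyme and ATG8 loci and, for autophagy and senescence loci each, up to 10 with the largest change past the threshold at 5 FPKM or more, the 3 most abundant, the 3 most abundant that did not pass, and loci of the same description. Up to 3 loci per other list were named by the same measure. Loci outside this rule, the list of other ATG numbers and the pairs drawn were chosen after their values were seen. The NBR1 search text also matched 3 nitrate reductases by a clone name, which were removed from 9 hits. No sequences are shown.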

Additional observations from a re-analysis of the deposited data

How the results depend on the processing

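DESeq2, RLE factors, no filter on low counts and counts divided by the step left the 21 autophagy and 2 vacuolar-processing enzyme calls as they were in number and reversed no member. The senescence calls were 8, or 9 with no filter, which called 2 loci higher in leaf in place of 1. Leaving out a library gave 21 to 23 autophagy calls (21 to 22 in leaf, 0 to 1 in petiole), 7 to 9 senescence calls (1 to 2 in leaf, 6 to 7 in petiole), 2 vacuolar-processing enzyme calls and 18540 to 18899 over all loci (9138 to 9498 in leaf, 9160 to 9612 in petiole).

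On the FPKM values the direction moved with the median shift of 0.74 between the scalings. Autophagy loci higher in leaf went from 21 to 6 (limma, pseudocount 1), 6 (pseudocount 0.1), 3 (mean of at least 5 FPKM) and 6 (edgeR on the FPKM scale), and those higher in petiole from 0 to 11, 11, 6 and 12. The senescence locus higher in leaf was 0 under all 4. Over all loci those higher in leaf were 5083, 5096, 2155 and 4672 in place of 9802. Those higher in petiole were 18431, 18478 and 17746 in place of 9909 with pseudocounts 1 and 0.1 and with edgeR. With at least 5 FPKM fewer loci were tested, and calls fell to 9 autophagy loci, 1 vacuolar-processing enzyme locus with 0 in petiole, and 12162 over all loci.

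Of the members that passed on at least one scale, 16 with a negative log2 fold change on the counts turned positive on the FPKM scale. MSTRG.14136 and BraA02g013690.3C, which passed on neither, turned to 0.26 and 0.46 with edgeR. For the 16, with edgeR, limma at pseudocount 0.1 and limma at pseudocount 1, in that order, the values were 0.12, 0.13 and 0.11 for MSTRG.11871, 0.71, 0.69 and 0.58 for MSTRG.12295, 0.39, 0.39 and 0.37 for MSTRG.14312, and 0.45, 0.45 and 0.44 for MSTRG.14538. They were 0.73, 0.72 and 0.66 for MSTRG.17146, 0.62, 0.61 and 0.51 for MSTRG.1827, 0.27, 0.25 and 0.22 for MSTRG.24854, and 0.44, 0.43 and 0.39 for MSTRG.25929. They were 0.56, 0.54 and 0.45 for MSTRG.27614, 0.30, 0.30 and 0.28 for MSTRG.28815, 0.10, 0.11 and 0.088 for MSTRG.30112, and 0.41, 0.41 and 0.35 for MSTRG.3198. They were 0.19, 0.19 and 0.16 for MSTRG.545, 0.043, 0.043 and 0.043 for MSTRG.8097, and 0.19, 0.19 and 0.16 for MSTRG.9157. MSTRG.10535 turned with edgeR alone, at 0.0023.

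The labels do not say whether leaf and petiole libraries with the same replicate number share a plant. Deviations of same-numbered libraries correlated at 0.024, -0.0058 and -0.0041, and those of other pairs at -0.017 to 0.020. With 3 libraries per tissue these values cannot settle the question. With the replicate number as a block there were 21 autophagy calls, 7 senescence calls (6 in petiole), 2 vacuolar-processing enzyme calls and 18683 over all loci, and MSTRG.4910 did not pass (edgeR adjusted p = 0.0704). The 19 members left out by the filter each had at most 70 units over the 6 libraries, and why was not tested.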
